A study of Mus musculus with 6 samples.

Results

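Immediate early genes are the genes that a cell transcribes within minutes of a growth factor, stress or neural signal, without first making new protein. The 10 genes *Fos*, *Fosb*, *Jun*, *Junb*, *Egr1*, *Egr2*, *Egr3*, *Nr4a1*, *Ier2* and *Dusp1* were taken by name as classical members of this class, and are 10 of the 19938 genes to which the array gives an own probe set. The array annotation pairs each of the 10 with exactly 1 probe set that carries a single gene symbol. The rule for the choice uses names and no measured value, but the genes were chosen with earlier results of these data known. Their transcripts were measured in total RNA from the dorsal skin of 3 *Bmal1*-/- mice and of 3 *Bmal1*+/- littermates on the C57BL/6J background, each on a separate Affymetrix whole-transcript gene array. All 6 mice were at postnatal day 22 by their age label and were in telogen by histology, the rest period of hair follicles. *Bmal1*+/- replicate 1 was male and the other 5 mice were female, and the source name of that male gives day 23. *Bmal1*-/- mice carry 2 mutated copies of *Bmal1*, the partner of CLOCK in the circadian clock, and the controls carry 1 mutated copy, so no mouse had 2 intact copies. Time of day and handling of the skin can both move immediate early transcripts. The methods give an afternoon collection window for the time-course skin and do not state whether it also held for these mice, and the handling time is not stated.

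Signalling through MAP kinases and cyclic AMP activates immediate early genes by way of factors already bound at their promoters, chiefly SRF with its partners at CArG boxes and CREB at cyclic AMP response elements (CREs). Most of the products are transcription factors. FOS and JUN proteins pair to form AP-1, which controls proliferation and differentiation of keratinocytes, the EGR proteins are zinc finger factors, and NR4A1 is an orphan nuclear receptor. The transcripts are short-lived, so their level follows recent signalling, and *Dusp1* encodes a phosphatase that switches the MAP kinases off again. BMAL1 with CLOCK binds the E-box CACGTG.

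RefSeq promoter windows (GRCm38.p6, 250 bases before to 50 after a transcription start) were at hand for 7 of the 10 genes, *Fos*, *Fosb*, *Jun*, *Junb*, *Egr2*, *Nr4a1* and *Dusp1*. The 150 bases before the start are printed 5′ to 3′ on the strand of the gene for *Fos* (chr12:85473740-85473889, plus strand), *Fosb* (chr7:19310046-19310195, minus strand), *Nr4a1* (chr15:101266696-101266845, plus strand) and *Dusp1* (chr17:26508473-26508622, minus strand), which are shown because these genes had the largest differences between the genotypes. Capitals mark matches, on either strand, to the CRE core TGACG, the full CRE TGACGTCA that contains it, the E-box CACGTG and the EGR core GCGGGGG or GCGTGGG.
Fos: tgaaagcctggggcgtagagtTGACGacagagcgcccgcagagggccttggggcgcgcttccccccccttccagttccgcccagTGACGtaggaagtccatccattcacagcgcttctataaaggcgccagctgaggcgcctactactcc
Fosb: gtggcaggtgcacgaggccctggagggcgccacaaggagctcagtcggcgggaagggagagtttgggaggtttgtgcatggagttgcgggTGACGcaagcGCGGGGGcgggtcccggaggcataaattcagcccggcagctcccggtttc
Nr4a1: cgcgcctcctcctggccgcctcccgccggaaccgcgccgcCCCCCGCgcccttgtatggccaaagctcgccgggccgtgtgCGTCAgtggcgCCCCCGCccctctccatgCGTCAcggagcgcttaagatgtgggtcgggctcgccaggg
Dusp1: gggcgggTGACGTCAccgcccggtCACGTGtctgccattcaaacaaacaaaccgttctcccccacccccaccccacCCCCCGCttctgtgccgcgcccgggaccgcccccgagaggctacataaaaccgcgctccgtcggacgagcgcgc
In the whole 300-base windows the CRE core was found in 6 of the 7 genes, all but *Jun*, against 23% of 27025 genes with a window. The full CRE was found in *Dusp1* alone, against 2.03% of genes. The EGR core was in 5 of the 7 genes (*Fosb*, *Junb*, *Egr2*, *Nr4a1* and *Dusp1*), against 16.2%. The CArG box was in *Egr2* alone, against 1.81%. Bases more than 250 before a start were not searched, so a gene without a match can have a CArG box farther upstream. The AP-1 site TGACTCA was in none of the 7 genes, against 5.95%, and TATAAA was in *Fos* and *Junb*, against 15.7%. The E-box CACGTG was in *Dusp1*, at bases −126 to −121 before its start, and in *Egr2*, against 8.09% of genes. *Egr2* has 5 windows, the other 6 genes 1 each, so that *Egr2* had more sequence in which to match. These matches describe letters in the windows and are not evidence that a factor was bound.

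None of the 10 genes passed an adjusted p of 0.05 between the genotypes. By limma, fitted to 23410 probe sets with a gene symbol on the scale log2(intensity + 16) and adjusted over all of them by Benjamini and Hochberg, *Bmal1*-/- skin had 0 of the 10 lower and 0 higher, where 0.132% of all probe sets were lower and 0.0982% higher. At an unadjusted p under 0.05, *Fos*, *Fosb*, *Egr2*, *Nr4a1* and *Dusp1* were lower, 5 of 10, and 0 were higher, where the shares over all probe sets were 4.6% lower and 4.17% higher. In *Fos*, *Egr2* and *Nr4a1* each *Bmal1*-/- mouse lay below each *Bmal1*+/- mouse, 3 of 10 genes, against 7.68% of all probe sets, and no gene had the reverse arrangement, against 6.99%. The fold change was below 0 in 8 of the 10 genes, where it was in 10599 of the 23410 probe sets. Among the 8, *Junb* and *Ier2* were close to 0 and changed sign in some alternative fits. The median fold change over the 10 genes was −0.19 on the log2 scale, from −0.44 to 0.07, beside 0.01 over all 23410 probe sets. With 3 mice against 3 the two-sided exact permutation test cannot go below p = 0.1 for a single gene, the value that *Fos*, *Egr2* and *Nr4a1* reached.

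**Figure D1:**
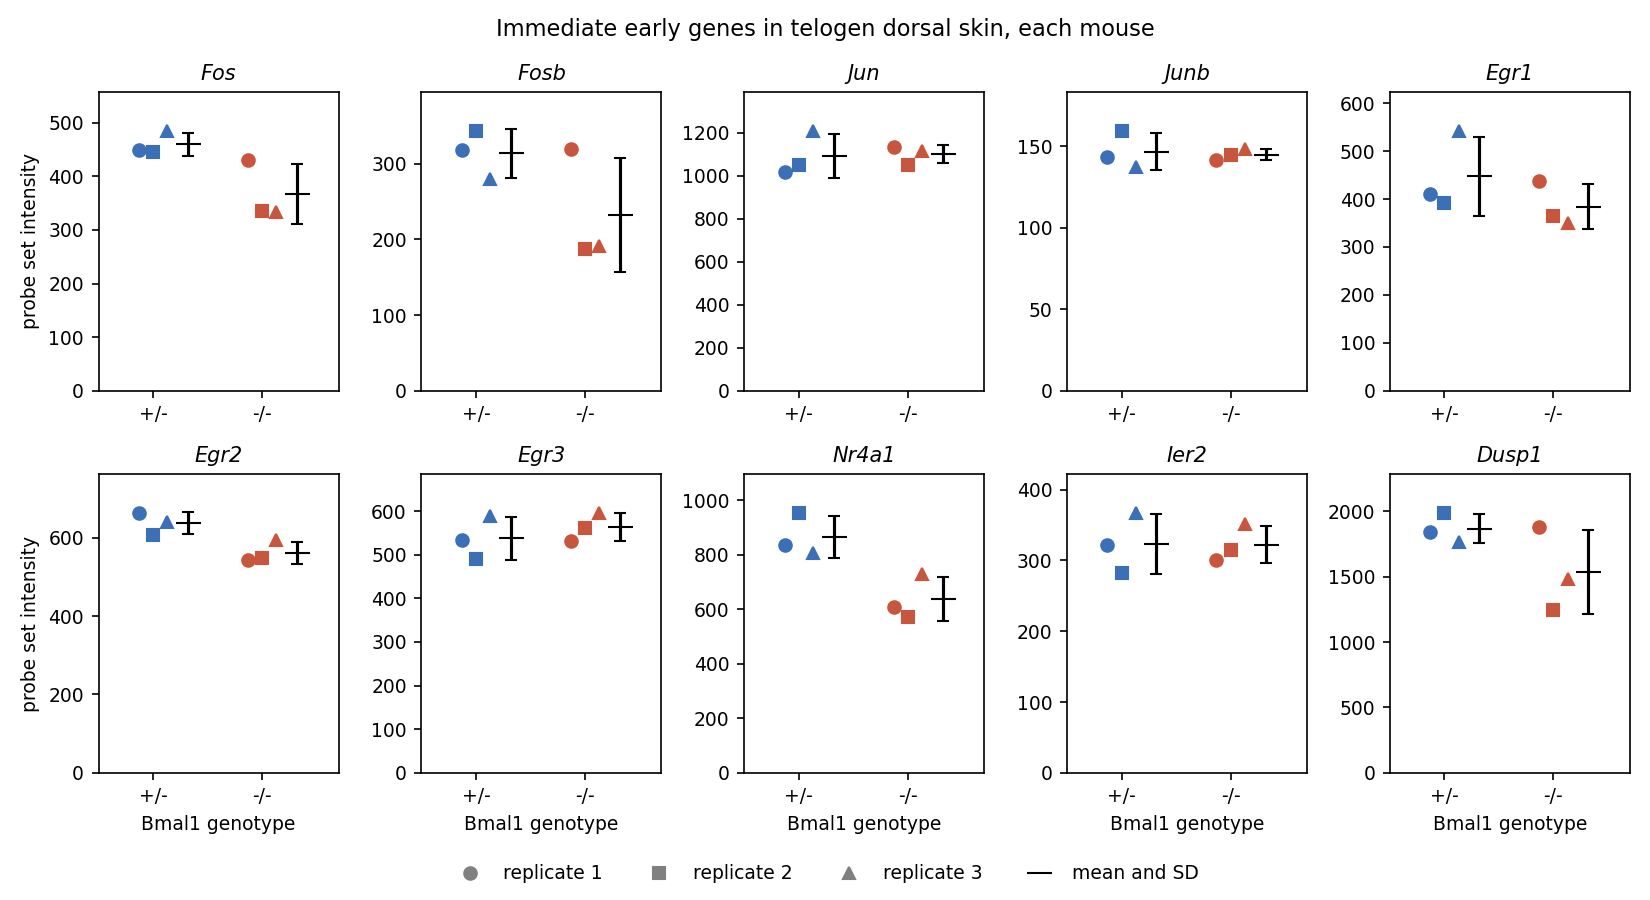
Probe set intensity on a linear axis from 0 for each of the 10 immediate early genes, with 1 point per mouse, the shape giving the replicate number and the bar the mean and SD of 3 mice. *Fos*, *Egr2* and *Nr4a1* show no overlap between the genotypes, whereas in *Fosb* and *Dusp1* the circle of *Bmal1*-/- replicate 1 lies among the *Bmal1*+/- mice.

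*Fos* encodes the FOS subunit of AP-1, which cannot bind DNA without a JUN partner. Its probe set (10397346) gave intensities of 449, 445 and 485 in *Bmal1*+/- replicates 1, 2 and 3, the controls, and 431, 335 and 334 in *Bmal1*-/- replicates 1, 2 and 3. All 3 *Bmal1*-/- values were below all 3 control values, the first of them by a small margin. The means were 459.7 ± 21.6 and 367 ± 55.7 (SD, n = 3 mice each), and the log2 fold change was −0.32 (SE 0.10, limma adjusted p = 0.39).

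*Fosb* encodes another FOS family subunit of AP-1. Its probe set (10560481) gave intensities of 317, 343 and 279.7 in the controls and 319, 187 and 191 in the *Bmal1*-/- mice, in the same replicate order. *Bmal1*-/- replicate 1 lay inside the control range and the other 2 *Bmal1*-/- mice lay well below it, so the genotypes overlapped. The means were 313 ± 31.8 and 232 ± 75.4 (SD, n = 3 each), and the log2 fold change was −0.44 (SE 0.18, limma adjusted p = 0.51), the lowest fold change of the 10.

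The fold changes of the JUN subunits were smaller in size than those of *Fos* and *Fosb*. Whether the JUN and FOS genes differed in this was not tested. *Jun*, the core DNA-binding partner in AP-1 (10514466), gave intensities of 1017, 1050.0 and 1208 in the controls and 1135, 1052 and 1116 in the *Bmal1*-/- mice, and all 3 *Bmal1*-/- values were inside the control range. Its log2 fold change was 0.02 (SE 0.07, 95% confidence interval −0.15 to 0.18, limma adjusted p = 0.97). *Junb*, a JUN family member that often opposes the activity of JUN (10580282), gave intensities of 144, 159 and 137 in the controls and 142, 145 and 149 in the *Bmal1*-/- mice, again inside the control range. Its log2 fold change was −0.01 (SE 0.09, 95% confidence interval −0.22 to 0.19, limma adjusted p = 0.98). These intervals are not adjusted for the number of genes.

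Among the EGR genes, *Egr1*, a zinc finger factor induced by serum and wounding (10454782), gave intensities of 410, 391 and 542 in the controls and 438, 364 and 351 in the *Bmal1*-/- mice. *Bmal1*+/- replicate 3 was the highest of the 6 and *Bmal1*-/- replicate 1 lay between the controls. The means of 448 ± 82.2 and 384 ± 47.1 (SD, n = 3 each) differed by less than the larger SD, with a log2 fold change of −0.20 (SE 0.13, limma adjusted p = 0.68). *Egr2*, also known as Krox20 (10363735), gave intensities of 663, 607 and 641 in the controls and 542, 549 and 593 in the *Bmal1*-/- mice. The genotypes did not overlap, and *Bmal1*-/- replicate 1, close to the controls for *Fos* and *Fosb*, was the lowest mouse here. The means were 637 ± 28.2 and 562 ± 27.7 (SD, n = 3 each), and the log2 fold change was −0.18 (SE 0.07, limma adjusted p = 0.49). *Egr3*, which EGR1 can itself induce along with growth signals (10416251), gave intensities of 535, 489 and 588 in the controls and 531, 562 and 596 in the *Bmal1*-/- mice. The ranges overlapped over most of their length, and the log2 fold change was 0.07 (SE 0.08, 95% confidence interval −0.12 to 0.25, limma adjusted p = 0.85).

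*Nr4a1*, which encodes the orphan receptor NUR77 (10427035), stood closest to the threshold. It gave intensities of 836, 952 and 808 in the controls and 608, 573 and 729 in the *Bmal1*-/- mice. The highest *Bmal1*-/- mouse was replicate 3, below the lowest control. The means were 865 ± 76.8 and 637 ± 81.8 (SD, n = 3 each), 26.4% lower in *Bmal1*-/- skin. The log2 fold change was −0.44 (SE 0.10, 95% confidence interval −0.66 to −0.22, limma adjusted p = 0.18), and it ranked 178 of 23410 probe sets by p. A test built after Cyber-T, the program named in the study's methods, gave *Nr4a1* an adjusted p of 0.014, and it was the only one of the 10 genes past 0.05 by that test, which called 177 probe sets lower where limma called 31. Each test was run on arrays simulated with the SD of each probe set within the genotypes. There 36.9% of the calls of the test built after Cyber-T and 1.96% of those of limma were false. No other setting was simulated, and these shares do not decide whether the call of *Nr4a1* was false. The unadjusted p of *Nr4a1* was 9.7e-05 by the test built after Cyber-T, under the study's threshold of 0.001. By limma it was 0.0014, above that threshold. Over the 18 alternative fits the adjusted p of *Nr4a1* ran from 0.014 to 0.42.

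*Ier2*, a nuclear protein whose role is less well defined (10580183), gave intensities of 321, 283 and 367 in the controls and 301, 315 and 352 in the *Bmal1*-/- mice. Every *Bmal1*-/- value lay inside the control range, and the log2 fold change was 0.00 to 2 decimals (95% confidence interval −0.23 to 0.23, limma adjusted p = 1.0). *Dusp1*, the MAP kinase phosphatase MKP-1 (10449284), gave intensities of 1845, 1987 and 1766 in the controls and 1882, 1244 and 1486 in the *Bmal1*-/- mice. As for *Fosb*, *Bmal1*-/- replicate 1 was inside the control range and the other 2 *Bmal1*-/- mice were below it. The means were 1866 ± 112 and 1537 ± 322 (SD, n = 3 each), and the log2 fold change was −0.30 (SE 0.13, limma adjusted p = 0.55).

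**Figure D2:**
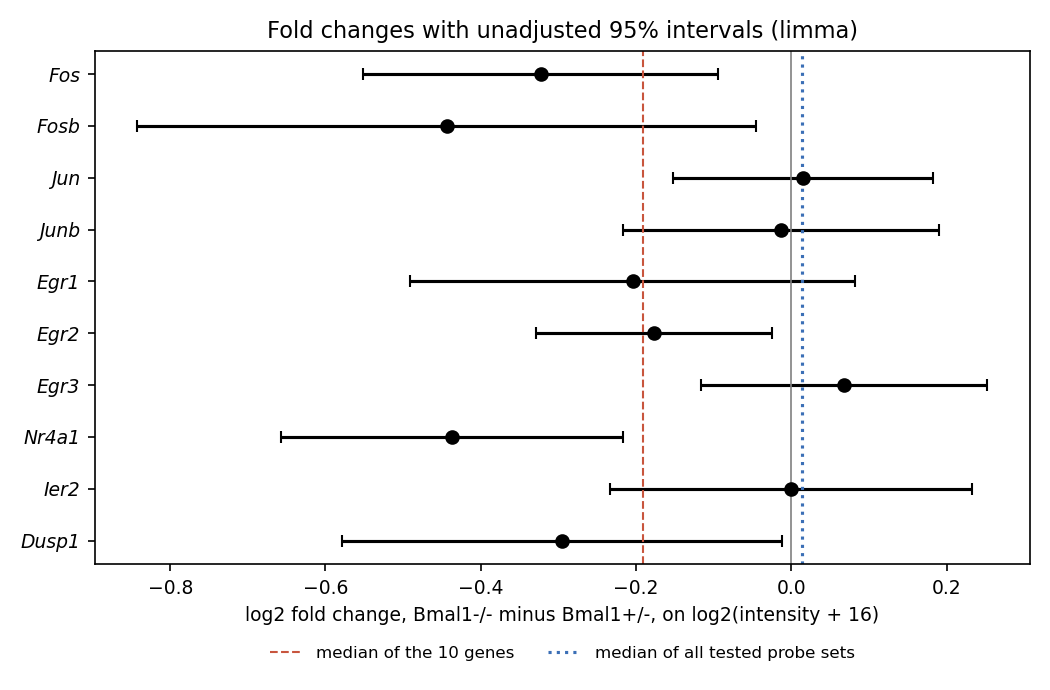
Fold change of each immediate early gene (*Bmal1*-/- minus *Bmal1*+/-, log2 scale, points) with its 95% confidence interval from limma, not adjusted for multiple tests (bars, n = 3 mice per genotype). The dashed line is the median of the 10 genes, −0.19, the dotted line the median of all tested probe sets, 0.01, and the interval lies below 0 for *Fos*, *Fosb*, *Egr2*, *Nr4a1* and *Dusp1*.

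The 5 genes at an unadjusted p under 0.05 were not equally stable when 1 mouse was left out. *Fos* and *Nr4a1* remained at that level in each of the 6 fits. Leaving out *Bmal1*+/- replicate 1, the male, or *Bmal1*-/- replicate 2 left 2 of the 10 genes there, leaving out *Bmal1*+/- replicate 2, *Bmal1*+/- replicate 3 or *Bmal1*-/- replicate 3 left 3, and leaving out *Bmal1*-/- replicate 1 left 4. Of all probe sets, 3.75% to 4.48% were lower at that level in these 6 fits. No gene of the 10 passed an adjusted p of 0.05 in any of these fits. Without *Bmal1*-/- replicate 1, *Fosb* had a log2 fold change of −0.68 (limma adjusted p = 0.070) and *Dusp1* one of −0.45 (limma adjusted p = 0.18). Without *Bmal1*-/- replicate 2 the fold change of *Dusp1* was −0.15 (limma adjusted p = 0.89) and that of *Fosb* was −0.32. *Egr1* went to −0.06 without *Bmal1*+/- replicate 3 (limma adjusted p = 0.81), and *Egr3* ranged from 0.0042 without *Bmal1*+/- replicate 2 to 0.13 without *Bmal1*+/- replicate 3. Over all 18 alternative fits, the adjusted p of *Fosb* ran from 0.070 to 0.84 and that of *Dusp1* from 0.18 to 0.89, with fold changes below 0 throughout.

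The genes that differed most among the *Bmal1*-/- mice were *Fosb*, *Dusp1* and *Fos*. The SD of *Fosb* over the 3 *Bmal1*-/- mice was 0.41 on the log2 scale, at the 99.2 percentile of the same SD over all tested probe sets, while its SD over the 3 *Bmal1*+/- mice, 0.14, was at the 64.2 percentile. For *Dusp1* the SD over the *Bmal1*-/- mice was at the 97.4 percentile and for *Fos* at the 90.2 percentile, where the SD of *Fos* over the *Bmal1*+/- mice was at the 27.3 percentile. *Egr1* was variable in both genotypes, at the 82.4 percentile in *Bmal1*-/- and the 89.4 percentile in *Bmal1*+/- skin. By contrast *Junb*, *Jun* and *Egr2* were among the less variable probe sets in *Bmal1*-/- skin, at the 8.32, 25.3 and 33.2 percentiles. Whether the spread of a gene differed between the genotypes was not tested.

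Each gene was centred on its mean over the 6 mice, and the centred log2 levels were averaged over the 10 genes. This mean was 0.07, 0.07 and 0.13 in *Bmal1*+/- replicates 1, 2 and 3 and 0.00, −0.19 and −0.09 in *Bmal1*-/- replicates 1, 2 and 3. *Bmal1*-/- replicate 2 was the lowest mouse, with 1 of the 10 genes above its own mean, where 54.4% of all tested probe sets were above theirs on that array. *Bmal1*+/- replicate 3 was the highest, with 9 of 10 above, where 61.1% of all probe sets were. The genes did not keep one order over the mice. *Fos*, *Jun*, *Egr1* and *Ier2* were highest in *Bmal1*+/- replicate 3, and *Fosb*, *Junb*, *Nr4a1* and *Dusp1* in *Bmal1*+/- replicate 2, where *Egr3* and *Ier2* were at their lowest. The scatter of the 10 genes around the mean had an SD of 0.11 to 0.20 on each array, beside means that ran from −0.19 to 0.13.

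**Figure D3:**
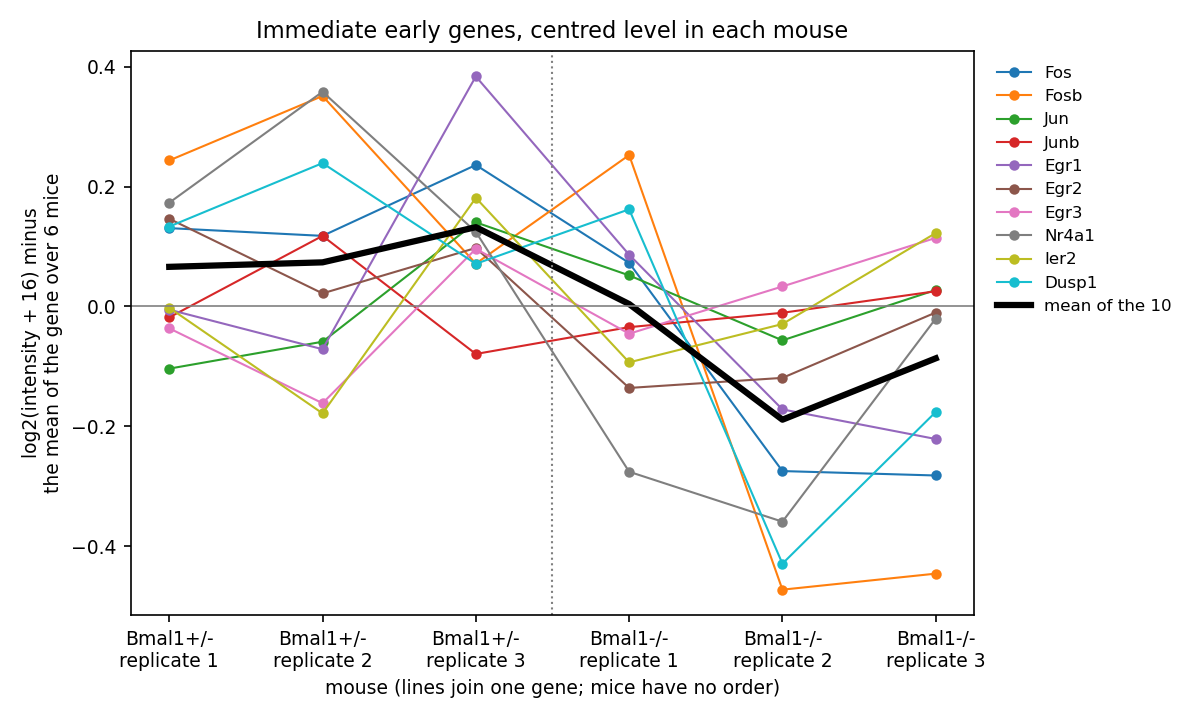
Level of each immediate early gene in each mouse, as log2(intensity + 16) minus the mean of that gene over the 6 mice (thin lines), and the mean over the 10 genes (thick line). The mean lies at 0.07 to 0.13 in the 3 *Bmal1*+/- mice, at 0.00 in *Bmal1*-/- replicate 1 and below 0 in the other 2 *Bmal1*-/- mice. Single genes depart from it, *Fosb* and *Nr4a1* the farthest.

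The genes closest to this mean profile, by the root mean square difference over the 6 mice among the 19928 genes outside the 10, were *G370120E05Rik*, *Map7d3*, *Tbc1d1*, *Shisa2*, *Nop16*, *Faim*, *Nrde2* and *Tgfb1i1*, at 0.027 to 0.035 on the log2 scale. The 10 genes themselves were farther from their own mean, from 0.082 for *Egr2* to 0.25 for *Fosb*. A flat profile would stand at 0.11, and 3227 genes were nearer than that. With 6 arrays this likeness is a description only.

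Related genes were counted over 7 lists, in which 82 of 86 genes were measured. Of these 82, 1 passed the adjusted threshold, and it lay among the other MAP kinase phosphatases. *Dusp10*, which encodes MKP-5, a phosphatase for JNK and p38, gave intensities of 521, 637 and 523 in the controls and 361, 335 and 389 in the *Bmal1*-/- mice. The genotypes were far apart relative to their spread, with means of 560.4 ± 66.4 and 362 ± 27.0 (SD, n = 3 each), and *Dusp10* fell by 0.61 on the log2 scale (SE 0.09, limma adjusted p = 0.043). It passed in 7 of 18 alternative fits, with adjusted p from 0.00055 to 0.17 and a log2 fold change of −0.66 to −0.51. It did not pass when any 1 mouse was left out (limma adjusted p from 0.078 to 0.14) or under quantile normalization (0.054).

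The 7 phosphatases, *Dusp10* included, lay on both sides of 0, with 4 fold changes below 0, 3 above and a median of −0.01. At an unadjusted p under 0.05, 2 were lower and 2 higher, beside 4.6% and 4.17% of all probe sets. Besides *Dusp10* these were *Dusp6*, an ERK phosphatase, at −0.19 (SE 0.07, limma adjusted p = 0.48) and *Dusp8* at 0.29 (SE 0.08, limma adjusted p = 0.29), both without overlap between the genotypes, and *Dusp4*, with overlap. These 3 are named here after their values were seen. *Dusp4*, or MKP-2, gave intensities of 177, 198 and 232 in the controls and 192, 464 and 361 in the *Bmal1*-/- mice. *Bmal1*-/- replicate 1 was again inside the control range while the other 2 *Bmal1*-/- mice were outside it, in this gene above it. Its log2 fold change was 0.62 (SE 0.25, limma adjusted p = 0.52), and its SD over the *Bmal1*-/- mice was at the 99.8 percentile.

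The other AP-1 and bZIP genes, 9 in number and including *Fosl2*, *Jund* and *Atf3*, gave 0 called in either direction, 0 at an unadjusted p under 0.05 and a median log2 fold change of 0.02. The largest differences were those of the small MAF factors *Maff*, 0.21 (limma adjusted p = 0.69), and *Mafk*, 0.17 (limma adjusted p = 0.59), with *Maff* at 0.13 without *Bmal1*+/- replicate 1 or 2 and at 0.36 without replicate 3. The 5 other EGR and NR4A genes, *Nr4a2* and *Nr4a3* among them, also gave 0 called and 0 at an unadjusted p under 0.05, with a median of 0.03. *Egr4* had a log2 fold change of 0.16 (limma adjusted p = 0.73), between 0.094 without *Bmal1*-/- replicate 1 and 0.27 without *Bmal1*+/- replicate 3, and *Nab1*, a corepressor of EGR factors, one of −0.12 (limma adjusted p = 0.63). *Nr4a2*, at −0.01, and *Nr4a3*, at 0.05, did not share the fold change of *Nr4a1*, though the difference between the receptors was not tested.

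Of 26 other immediate early genes, 0 were called. At an unadjusted p under 0.05, 4 were lower and 1 was higher, beside 4.6% and 4.17% of all probe sets. The fold change was below 0 in 17 of the 26, where it was in 10599 of the 23410 probe sets, and the median was −0.09. *Per1*, a clock repressor that is also an immediate early gene with CRE and E-box control, gave intensities of 993, 937 and 665 in the controls and 846, 275 and 365 in the *Bmal1*-/- mice. *Bmal1*-/- replicate 1 overlapped the controls and the other 2 *Bmal1*-/- mice did not, the arrangement of *Fosb* and *Dusp1*. Its log2 fold change was −0.93 (SE 0.33, limma adjusted p = 0.46), and without *Bmal1*-/- replicate 1 it was −1.38 (limma adjusted p = 0.028, within a range of 0.028 to 0.79 over the 18 alternative fits). Without *Bmal1*-/- replicate 2 it was −0.60 (limma adjusted p = 0.75). *Errfi1*, an inhibitor of the EGF receptor, gave intensities of 3007, 2621 and 1641 in the controls and 2029, 1566 and 1623 in the *Bmal1*-/- mice, a log2 fold change of −0.44 (SE 0.19, limma adjusted p = 0.56). Here the wide spread was in the controls, and the fold change was −0.26 without *Bmal1*+/- replicate 1 and −0.70 without *Bmal1*+/- replicate 3 (limma adjusted p = 0.89 and 0.11).

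*Ccn1*, *Ccn2* and *Trib1* were singled out after their values were seen. *Ccn2*, the matricellular protein CTGF, gave intensities of 1249, 1187 and 1249.7 in the controls and 1433, 756 and 695 in the *Bmal1*-/- mice, a log2 fold change of −0.42 (SE 0.22, limma adjusted p = 0.62). *Bmal1*-/- replicate 1 was above every control and the other 2 *Bmal1*-/- mice below every control. *Ccn1*, its relative CYR61, ran the same way with 611, 599 and 670.5 against 687, 496 and 486. *Trib1*, a pseudokinase of the tribbles family, gave intensities of 472, 528 and 536 in the controls and 390.1, 365 and 407 in the *Bmal1*-/- mice, without overlap and with no such departure of replicate 1, and its log2 fold change was −0.39 (SE 0.08, limma adjusted p = 0.12).

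Upstream of these genes, 15 of 18 kinases and factors were measured and 0 were called, with a median log2 fold change of 0.01. At an unadjusted p under 0.05, 1 was higher, beside 4.17% of all probe sets. *Srf*, the factor at CArG boxes, had −0.17 (limma adjusted p = 0.62), or −0.10 without *Bmal1*-/- replicate 2, and *Mapk14*, or p38 alpha, 0.14 (limma adjusted p = 0.55). Of the EGF receptor and its ligands 7 of 8 were measured, 0 were called, and 3 reached an unadjusted p under 0.05, all higher, with no overlap between the genotypes, beside 4.17% and 6.99% of all probe sets. Among these, *Epgn*, or epigen, gave intensities of 269.8, 272 and 226 in the controls and 582, 325 and 358 in the *Bmal1*-/- mice, and a log2 fold change of 0.65 (SE 0.18, limma adjusted p = 0.32). Without *Bmal1*-/- replicate 1, the highest mouse, it was 0.40 (limma adjusted p = 0.39). *Btc*, or betacellulin, had 0.30 (limma adjusted p = 0.32). The 13 AP-1 and EGR targets gave 0 called, with a median of 0.01. By the unadjusted p under 0.05, 1 was lower and 2 were higher, beside 4.6% and 4.17% of all probe sets. The 2 largest differences, neither past the threshold, were *Vegfa* at 0.36 (SE 0.08, limma adjusted p = 0.15) and the gelatinase gene *Mmp9* at 0.35 (SE 0.11, limma adjusted p = 0.39).

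**Figure D4:**
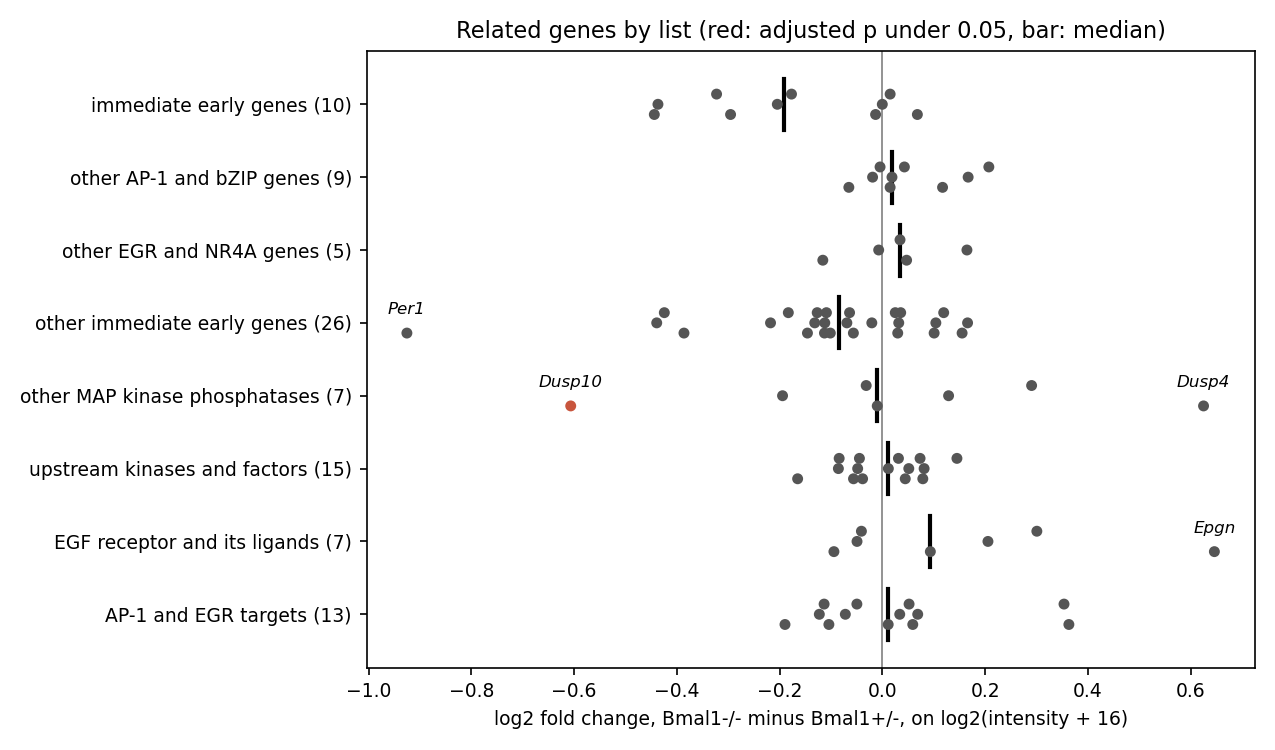
Fold change of each measured gene (*Bmal1*-/- minus *Bmal1*+/-, log2 scale, 1 point per gene, spread vertically for legibility) in the 10 immediate early genes and the 7 related lists, with the number of genes in parentheses and the median as a bar. *Dusp10*, in red, is the only gene past an adjusted p of 0.05, and the medians of the related lists lie between −0.09 and 0.09 against −0.19 for the 10 genes.

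The arrays were close in scale, with a median intensity of 219 to 235.5, and any pair correlated at r = 0.989 to 0.995 over probe sets. *Nr1d1*, a gene that CLOCK and BMAL1 activate, fell by 3.11 on the log2 scale (limma adjusted p = 2.0e-05). The targeted gene, listed as *Arntl*, was higher by 0.79 (limma adjusted p = 0.0037). That level does not check the labels, because the sources used here do not place its probes relative to the mutation. Of 6 keratinocyte markers 5 were measured, none below 5043, and the 6 fibroblast markers were all measured, none below 1876. No gene of the 7 marker lists was called. The fibroblast markers had a median log2 fold change of −0.14, with 5 of 6 below 0 and *Vim* and *Col3a1* lower at an unadjusted p under 0.05, and their part in the lower values of the immediate early genes was not tested. The medians were −0.09 for the keratinocyte markers, with *Lor* higher at an unadjusted p under 0.05, and −0.10 for the immune cell markers. They were 0.17 for the endothelial markers, all 5 above 0, then 0.09 for the adipocyte, 0.05 for the anagen follicle and −0.0017 for the striated muscle markers. The summed intensity of the 5 keratinocyte markers ran from 43080 to 47739 in *Bmal1*+/- and from 40829 to 45773 in *Bmal1*-/- skin, and that of the fibroblast markers from 68590 to 75753 and from 63551 to 69950. The summed intensity of 8 immune cell markers was 4156 in *Bmal1*-/- replicate 1, which held the lowest value of 6 of them, and 4950 to 5535 in the other 5 mice. The 6 anagen follicle markers were all highest in *Bmal1*+/- replicate 3, with a sum of 1631 against 718 to 1253 elsewhere. The sums of the striated muscle markers (47055 to 59210 in the controls, 49481 to 55595 in *Bmal1*-/- skin), the adipocyte markers (11335 to 11990 and 10704 to 14573) and the endothelial markers (3415 to 3711 and 3556 to 4666) overlapped, and *Bmal1*-/- replicate 3 was highest in all 5 endothelial and in 4 of the 5 adipocyte markers. *Bmal1*-/- replicate 1 and *Bmal1*+/- replicate 3 are the arrays in which *Fosb*, *Dusp1* and *Egr1* departed from their genotype, and the part of the cell content in those departures was not tested. In whole skin, fewer cells of a type and less RNA per cell cannot be told apart.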

How the data were processed

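Dorsal skin RNA of 3 control and 3 *Bmal1*-/- mice was hybridised to 6 arrays. The authors deposited 1 linear intensity per probe set and array, for which the submitters' processing notes name Affymetrix Expression Console 1.1 and PLIER 2.0. The sources used here do not give the background correction, the normalization between arrays or the genome build. The deposited intensity was taken to log2(intensity + 16) with no other scaling, which understates the fold change of dim probe sets. Of 35557 rows, the 23410 with at least 1 gene symbol in the platform annotation entered lmFit and eBayes with an intensity trend (limma 3.58.1, R 4.3.3), two-sided, with Benjamini-Hochberg adjustment and a threshold of 0.05. A related gene with several probe sets was represented by the brightest. The number of arrays limits the precision.

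The 10 genes, the related and marker lists and the alternatives were chosen with earlier results of these data known. Named in the text were the 10 genes, the called genes of each related list or, with none called, the 2 of largest change, and the 8 genes of most similar profile. The 18 alternative fits changed the offset, normalization, filter, rows tested, variance model or test, added the replicate number or sex, or left out 1 array. Because only 1 mouse was male, the sex term gave the same fold changes as leaving out *Bmal1*+/- replicate 1. It is therefore not a separate check. A further alternative applied the threshold stated in the study's methods, an unadjusted p of 0.001, to the limma p, whereas the study used it with Cyber-T. The Cyber-T type test averaged variances over 101 neighbouring probe sets by intensity, with 10 as the weight of the prior. Both tests were tried on arrays simulated with the SD that each probe set had within the genotypes here. A larger share of the calls of the Cyber-T type test was false there, and no other setting was simulated. Motifs were searched on both strands of RefSeq promoter windows in Python 3.11.15, and figures were made with matplotlib 3.10.9.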

Additional observations from a re-analysis of the deposited data

How the results depend on the processing

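No value of the 10 immediate early genes was below 137, while 16, the offset, exceeded 2.58% to 3.34% of intensities per array. The offset is not a measure of background. All *Junb* values, 137 to 159, lay below the median intensity of each array, 219 to 235.5. Whether the *Junb* probe set could show a change at that level was not tested. No gene of the 10 was called higher in any of the 18 alternative fits, and 1, *Nr4a1*, was called lower in 1 of them, the Cyber-T type test. Their median log2 fold change ran from −0.23 to −0.12 when 1 array was left out. Of the related genes, the 1 called lower (*Dusp10*) became 0 under quantile normalization, with all rows tested, without the variance trend, with the replicate block and with a sex term. It became 3 by the Cyber-T type test (*Trib1*, *Per1* and *Dusp10*), with 2 called higher (*Epgn* and *Vegfa*), and 2 lower and 1 higher at an unadjusted p under 0.001. Leaving out 1 array gave 0 to 2 lower, the 2 being *Ccn2* and *Per1* without *Bmal1*-/- replicate 1. Over all probe sets, 31 lower and 23 higher became 19 and 15 with all rows tested, 16 and 11 without the variance trend, 177 and 96 by the Cyber-T type test, 93 and 59 at an unadjusted p under 0.001, and 22 to 34 and 13 to 23 with 1 array left out. The cause of these shifts was not tested. The sign of 3 genes near 0 turned. *Ier2* went to 0.0013 under quantile normalization and ran from −0.090 to 0.090 with 1 array left out, above 0 without *Bmal1*+/- replicate 3, *Bmal1*-/- replicate 1 or *Bmal1*-/- replicate 2. *Jun* went to −0.033 with the sex term and ran from −0.033 to 0.089, below 0 without *Bmal1*+/- replicate 1, *Bmal1*+/- replicate 2 or *Bmal1*-/- replicate 1. *Junb* ran from −0.056 to 0.042, above 0 without *Bmal1*+/- replicate 2 or *Bmal1*-/- replicate 1. The deviations of mice of the same replicate number correlated at r = 0.078, −0.35 and 0.056 over probe sets. Those of mice of different number ran from −0.26 to 0.26. With 3 mice per genotype these values cannot decide whether the numbers pair the mice. With the replicate block 0 of the 10 genes and 0 related genes were called.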
